A study of Saccharomyces cerevisiae with 60 samples.

Results

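Fkh1, a forkhead transcription factor of budding yeast, was mapped by ChIP-seq with an anti-MYC antibody in unsynchronized cells and set against a strain with a MYC-tagged control protein. The comparison is chosen by its samples: 3 libraries of Fkh1-MYC (MOP) against 3 of MOP, 6 of the 60 libraries of the series. MOP cells carry a construct at ADE2 that makes bacterial LexA fused to 13 copies of the MYC epitope, from the ADH1 promoter, next to an array of lexA operator sites. Fkh1-MYC (MOP) cells carry the same construct and FKH1 tagged with 9 copies of MYC, marked with TRP1. Both strains are haploid MATa segregants of 1 cross in the W303 background with BAR1 deleted, each a single clone, and both were grown in rich medium (YEPD) at 23 °C and harvested in logarithmic growth. The sources do not say whether the 3 libraries of a strain came from separate cultures, so p-values measure the spread between these libraries, which may be technical. Other groups are used below as further readouts, none with a library of this comparison. Fkh1-MYC and fkh1-dbm-MYC, the latter with altered DNA-binding residues, are both without LexA. Fkh1-FLAG (FLOP) and FLOP have the FLAG epitope and were read with anti-FLAG. G1 Fkh1-MYC (MOP) and G1 MOP are the same strains held in G1 with α-factor, the mating pheromone, and so are not independent in strain. Background was also read in the untagged parent strain, which has no construct, with anti-MYC. Places of origin binding were taken from G1 Orc1-HA (HOP) and G1 HOP with anti-HA, both held in G1 with α-factor and carrying at TRP1 a construct for LexA with the HA epitope, the former with ORC1 tagged with HA as well.

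Forkhead proteins bind DNA through a winged-helix domain that prefers the core GTAAACA. In budding yeast Fkh1 and its paralog Fkh2 act with the activator Ndd1 on the CLB2 cluster, genes transcribed from G2 to M phase for mitosis, cytokinesis and bud-site choice. Fkh1 is also known to bind the recombination enhancer of chromosome III, which directs donor choice in mating-type switching, and origins of DNA replication that fire early. The TEM1 promoter probe that the study used for gel shifts with Fkh1 shows such a core, here in capitals on each strand, bases 11 to 17 of 27; TEM1 is the CLB2 cluster promoter with the second largest change below.
pro-TEM1-for: agcaaaaaagGTAAACAagaaaaggaa
pro-TEM1-rev: ttccttttctTGTTTACcttttttgct

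The deposited tables give the count of reads over each 50 bp window, and summed counts ran from 5424797 to 5949612 in the Fkh1-MYC (MOP) libraries and from 3748500 to 4968334 in the MOP libraries. The genome was divided into 24134 bins of 500 bp, of which 24062 held at least 10 counts in at least 3 of the 6 libraries and were tested with edgeR's quasi-likelihood test. The normalised count used below is the mean count per window divided by the 20th percentile of the library after a moving median, so 1 is near the background of that library. BAR1, deleted in both strains, had no count in any of the 6 libraries. Between libraries of 1 strain, Pearson's r of log2 normalised counts across bins was 0.756 to 0.766 for Fkh1-MYC (MOP) and 0.512 to 0.544 for MOP (across bins, which are not independent).

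Fkh1-MYC (MOP) exceeded MOP in 704 bins and fell below it in 10, at an adjusted p below 0.05 and a change of at least 2-fold, which is 2.93% and 0.0416% of the bins tested. The median log2 fold change over all bins was 0.01. Of the 704 bins, 701 were higher in all 9 pairs of libraries, against 15.6% of all tested bins. The 704 were picked by the call on these same libraries, so this follows in part from that choice and is a description. Joined where at most 1 uncalled bin lay between them, the 704 bins formed 384 regions: 30 in the terminal 5 kb of chromosomes, 4 in the ribosomal DNA, 1 at FKH1 itself and 349 elsewhere. The 349 regions were short, with a median length of 500 bp and a longest of 5000 bp, and 167 of them held 2 or more called bins. Their top bins had a median log2 fold change of 1.44 (quartiles 1.16 and 1.89). It was at least 2 in 78 regions and at least 3 in 16.

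The 25 named regions are those of largest change with 2 or more called bins, higher in all 9 pairs of libraries, outside chromosome ends, rDNA and altered loci. That the strains do not overlap in them, and their small p-values, follow from this choice, and their values are a description. No Fkh1-MYC (MOP) library was below 4.56 in any of their top bins and no MOP library was above 1.99, and the highest adjusted p among them was 8.84e-21. In 3 libraries of the untagged strain with anti-MYC, the means at 24 of the 25 ranged from 0.57 to 1.47; the region at SFG1 has shifted coordinates in that strain and has no value.

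**Figure D1:**
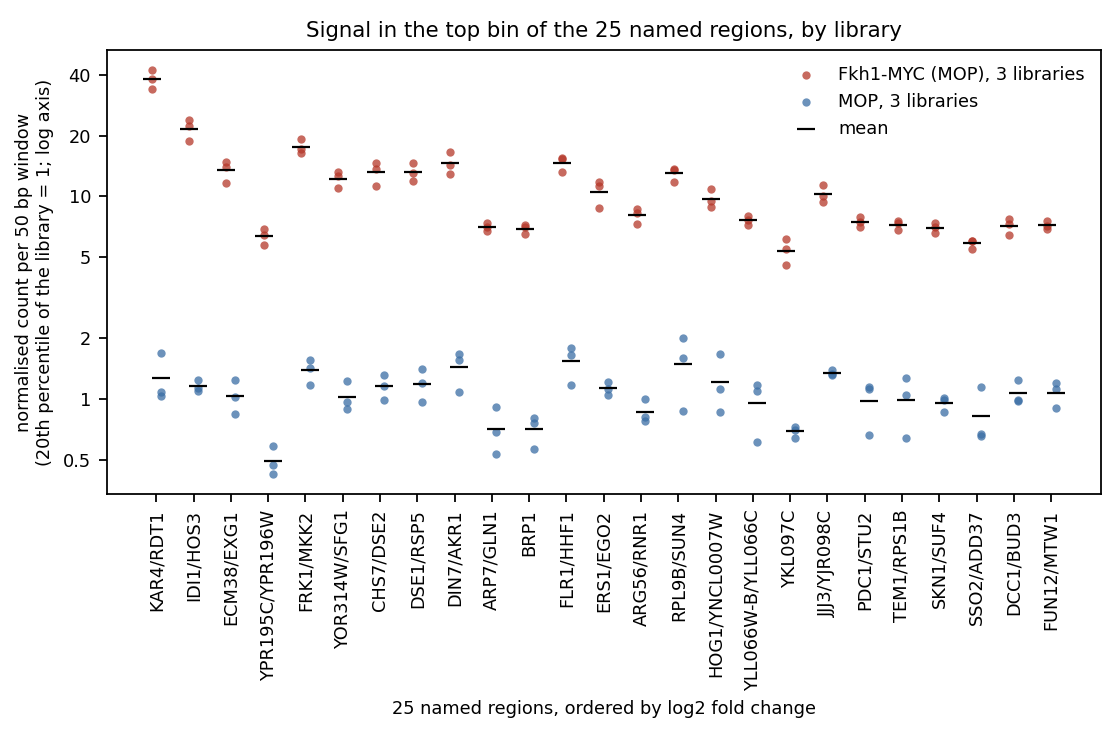
Normalised count (log axis, 20th percentile of the library = 1) in the top 500 bp bin of the 25 named regions, ordered by log2 fold change; points are single libraries of Fkh1-MYC (MOP) (red) and MOP (blue), 3 each, and bars are means. The red points lie at 4.56 or above and the blue points at 1.99 or below in every region.

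The recombination enhancer, between KAR4 and SPB1 on chromosome III, carried the highest signal of the 25. The called region was III:27501-31000, and its top bin III:29001-29500 had normalised counts of 38.2, 33.9 and 42.0 in the Fkh1-MYC (MOP) libraries against 1.03, 1.08 and 1.68 in the MOP libraries. The log2 fold change was 4.90 ± 0.25 (SE, n = 3 against 3, edgeR adjusted p = 1.28e-25). Over the whole interval between the genes the means were 14.3 ± 1.20 and 1.26 ± 0.29 (SD, n = 3 each). The enhancer was thus high in each Fkh1 library and at background in each control library. Chromosome III as a whole had the largest share of called bins, 62 of 628 tested (9.87%), while the other 15 chromosomes ranged from 1.75% on XIV to 4.04% on I.

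The next region lay in the divergent promoter of IDI1, an enzyme of isoprenoid and sterol synthesis, and HOS3, a histone deacetylase, at XVI:328001-330500. Its top bin measured 22.2, 18.8 and 23.7 in Fkh1-MYC (MOP) and 1.09, 1.24 and 1.13 in MOP, a log2 fold change of 4.22 ± 0.20 (SE). These 2 regions were the only ones of the 349 with a log2 fold change of 4 or more.

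The other named regions are described by the known role of an adjacent gene. This grouping was made after the values were seen and was not tested, and a region may serve the neighbour not described. Among genes of the cell wall and of daughter-cell separation, the region between ECM38 and EXG1, an exo-glucanase of the cell wall, changed by 3.71 ± 0.19 (log2 ± SE), with 13.5 ± 1.66 against 1.03 ± 0.20 (mean normalised count ± SD, n = 3 each). The region before DSE2, a daughter-specific glucanase, stood at 13.2 ± 1.72 against 1.15 ± 0.16. DSE1, a daughter-specific protein whose promoter is shared with the ubiquitin ligase gene RSP5, stood at 13.2 ± 1.41 against 1.19 ± 0.22. The region in the reading frame YKL097C, before CWP2, a cell wall mannoprotein, stood at 5.39 ± 0.79 against 0.69 ± 0.05. The region between the ribosomal protein gene RPL9B and SUN4, of a family of septation glucanases, changed by 3.12 ± 0.20 (log2 ± SE). The region near SKN1, a gene of glucan synthesis, changed by 2.88.

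Other named regions lay beside cell-cycle genes. The region before SFG1, a transcription factor gene of the CLB2 cluster, gave 12.66, 10.98 and 13.14 in Fkh1-MYC (MOP) and 0.96, 0.89 and 1.22 in MOP. The region before RNR1, the large subunit of ribonucleotide reductase, gave 8.31, 7.30 and 8.71 against 0.77, 0.81 and 1.00. TEM1, the GTPase of the mitotic exit network, gave 7.38, 6.81 and 7.56 against 1.26, 0.64 and 1.05, in a promoter that it shares with the ribosomal protein gene RPS1B. The log2 fold changes were 3.57, 3.23 and 2.88. BUD3, which marks axial bud sites, shares its region with the cohesion gene DCC1 (2.74), and MTW1, a kinetochore protein, lay next to FUN12 (2.74).

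The remaining named regions lay at genes of other functions. The widest, XVI:285001-290000 with 10 called bins, had its summit before FRK1, a protein kinase gene, and a log2 fold change of 3.67 in its top bin. Metabolic genes were GLN1, glutamine synthetase (3.29), PDC1, the main pyruvate decarboxylase, with the microtubule-associated protein gene STU2 on the other side (2.93), and PMA1, the plasma membrane proton pump, with the summit in the reading frame BRP1 that precedes it (3.27). DIN7, a mitochondrial nuclease gene, changed by 3.36, ERS1 with EGO2 by 3.23, SSO2, a secretory t-SNARE, with ADD37 by 2.84, and FLR1, a drug exporter next to the histone gene HHF1, by 3.25. The last 4 lay beside HOG1, the osmostress kinase (3.01), between JJJ3 and YJR098C (2.94), by YPR195C (3.67) and by the subtelomeric reading frame YLL066C (2.99).

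Summits of the 349 regions lay mainly between genes. Of these, 120 (34.4%) lay between divergent genes, 163 (46.7%) between tandem genes, 21 (6.02%) between convergent genes and 45 (12.9%) within coding sequence. Of all tested bins away from chromosome ends and rDNA, 73.4% were centred in coding sequence, 8.83% in divergent and 13.6% in tandem intergenic DNA. Within 500 bp before a start codon were 215 summits (61.6%) against 21.3% of bin centres, and the median distance to the nearest start codon was 292 bp for summits and 613 bp for bin centres. Regions with a summit in coding sequence had the smallest median log2 fold change, 1.15 against 1.49 for divergent and 1.46 for tandem places.

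Around the summits the Fkh1 signal was narrow and the control signal dipped. The median normalised count over the 349 summits, averaged over 3 libraries, was 3.97 in Fkh1-MYC (MOP) and fell to 1.32 at 2 kb, with a width of 400 bp at the middle height. In MOP it was 0.97 at the summit and 1.22 at 2 kb. Summits were placed where these 2 groups differed most, so those peak values are a description. Groups that did not place the summits gave 3.80 at the summit for Fkh1-MYC, 450 bp wide, and 0.97 for fkh1-dbm-MYC.

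**Figure D2:**
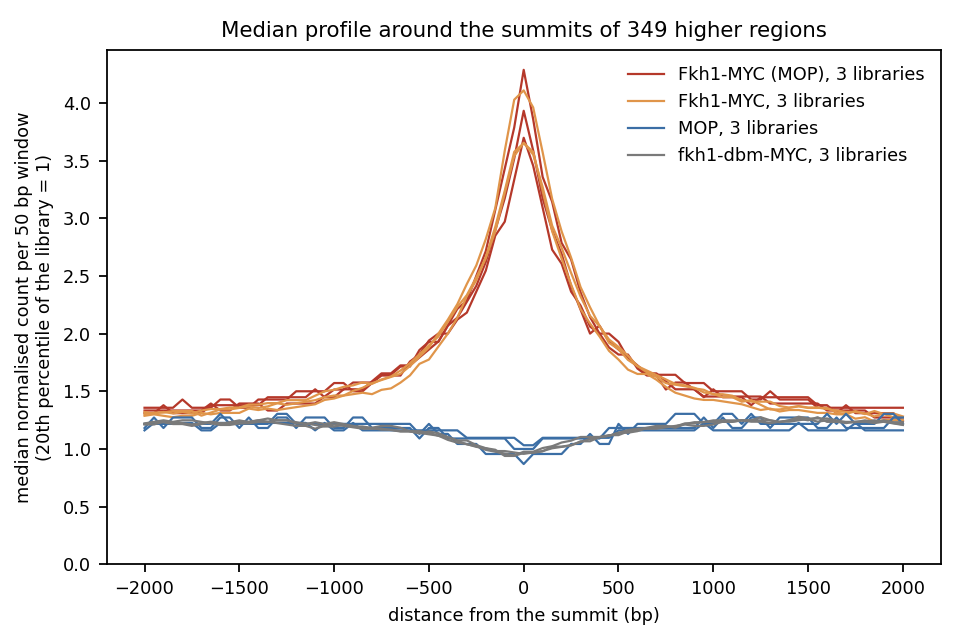
Median normalised count per 50 bp window (20th percentile of the library = 1) against distance from the summit in bp, over 349 higher regions outside chromosome ends, rDNA and altered loci; each line is 1 library, 3 per group. Fkh1-MYC (MOP) and Fkh1-MYC lines peak at the summit, with group averages of 3.97 and 3.80, while MOP and fkh1-dbm-MYC lines stay near 1.

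Promoters were then measured as the 500 bp before each start codon. Of 5988 tested, 361 were called higher and 1 lower, 6.03% and 0.0167%, and the median log2 fold change was 0.07. The lower promoter was that of ADE2, beside the construct. The counts of the gene lists below are to be read against 6.03%. A called promoter may be shared with a divergent neighbour, as for TEM1 and RPS1B or HHF1 and HHT1. All 52 called list promoters were higher in all 9 pairs of libraries, with adjusted p of at most 2.16e-05. They were picked by the call on these same libraries, so both facts follow in part from that choice and are a description.

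The CLB2 cluster held the largest share of called promoters among the 10 lists, 15 of 28, with a median log2 fold change of 1.25. After SFG1 (3.18 ± 0.19, SE), TEM1 (3.13 ± 0.19) and BUD3 (2.68 ± 0.18) came ALK1, a haspin-type kinase, at 1.94, SPO12 of mitotic exit at 1.84 and BUD4 at 1.74. VAC17, the vacuole adaptor of myosin, was at 1.59, the B-type cyclin CLB1 at 1.58, CDC20, the activator of the anaphase-promoting complex, at 1.51, and SWI5, an activator of M/G1 genes, at 1.46. PMP1, AIM20, BUD8 and IQG1 ranged from 1.44 down to 1.15. The cyclin CLB2 itself measured 1.9, 2.2 and 2.3 in Fkh1-MYC (MOP) and 1.4, 1.6 and 1.3 in MOP. Its groups did not overlap, but its log2 fold change of 0.54 ± 0.18 (edgeR adjusted p = 0.0198) was below the minimum. Further upstream of CLB2, XVI:770501-771500 was a called region outside the named 25, shown here after its values were seen. Its top bin had 4.70, 4.91 and 5.63 against 0.96, 1.05 and 0.97, a log2 fold change of 2.35 ± 0.17, and 2.04, 1.42 and 2.23 in the mutant, FLAG and G1 comparisons described below. The polo kinase gene CDC5 overlapped between the groups, with 1.1, 1.4 and 1.6 against 1.4, 0.91 and 1.2. The calls of PMP1 and CLB1 were lost with promoters of 250 bp.

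Among the forkhead and cell-cycle regulators 5 of 14 promoters were higher. YHP1, a repressor of M/G1 genes, had normalised counts of 3.32, 3.41 and 4.17 against 0.69, 0.93 and 0.91, and FKH2 had 3.35, 3.52 and 3.34 against 0.87, 0.99 and 0.70. These are log2 fold changes of 2.10 ± 0.18 and 1.999 ± 0.18. FHL1, the forkhead regulator of ribosomal protein genes, followed at 1.84, FKH1 at 1.11 and NDD1 at 1.06. The last 2 did not keep their calls under every setting: FKH1 fell to 0.99 without Fkh1-MYC (MOP) replicate 1, which left 3 of 14 called, and NDD1 fell below 1 with TMM factors, with DESeq2 and without 3 of the 6 libraries in turn. MCM1, the partner of Fkh2 at these promoters, was at -0.32 ± 0.22, and HCM1, another forkhead gene, at 0.33 ± 0.20; neither passed the test.

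The lists of later and earlier cell-cycle phases were called in part. Of 18 S/G2 spindle and chromosome genes, 6 were higher: the midzone protein ASE1 (1.87), separase ESP1 (1.62), the checkpoint kinase BUB1 (1.43), securin PDS1 (1.33), beta-tubulin TUB2 (1.29) and the kinesin CIN8 (1.07). The CIN8 call was lost with TMM factors, with DESeq2 and without MOP replicate 2. Of 18 M/G1 genes 4 were higher, all of daughter-cell separation: DSE1 (3.58), DSE2 (2.67), the glucanase SCW11 (1.68) and the chitinase CTS1 (1.18, and 0.47 in promoters of 250 bp). The 6 MCM helicase genes of that list ranged from -0.19 to 0.42 and none was called; MCM2, for example, had mean normalised counts of 0.99 against 1.09. Of 16 G1/S genes 2 were higher, RNR1 (2.60) among them, and 1 was called without MOP replicate 2.

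**Figure D3:**
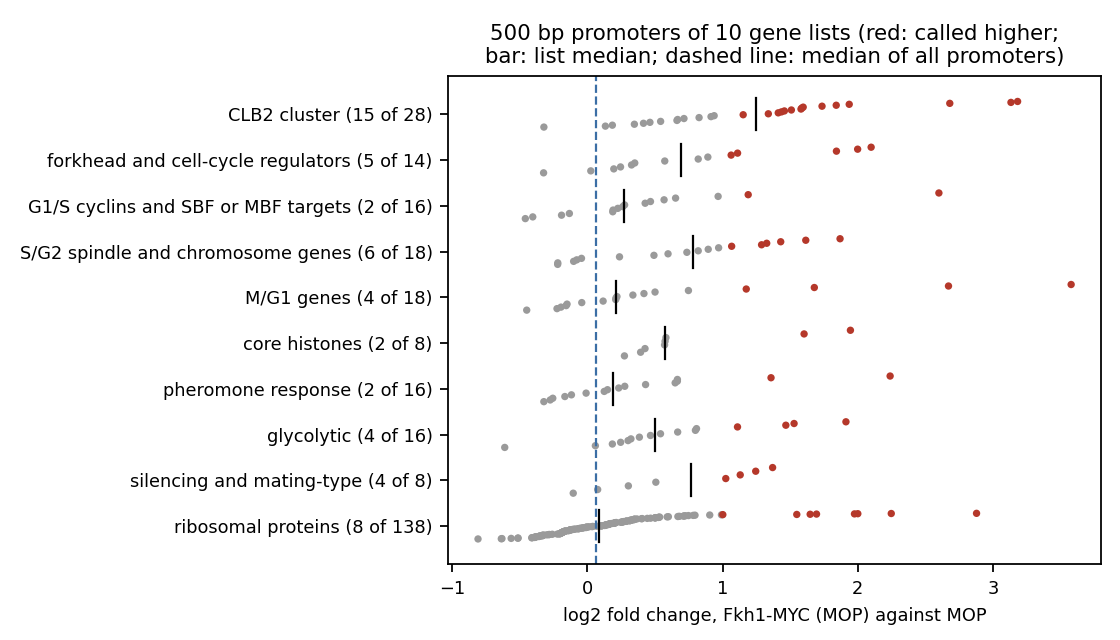
Log2 fold change of Fkh1-MYC (MOP) against MOP in 500 bp promoters, 1 point per gene, for 10 gene lists; red points are called higher, black bars are list medians and the dashed line is the median of all promoters. Labels give the called genes of each list, from 15 of 28 in the CLB2 cluster to 8 of 138 ribosomal protein genes.

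Lists of other functions were also called in part. Of 8 core histone genes 2 were higher, HHF1 (1.95) and HHT1 (1.60), the histone H4 and H3 genes that share a divergent promoter, while the other 6 ranged from 0.27 to 0.58. Of 16 pheromone response genes 2 were higher. MFA2, which encodes the mating pheromone a-factor, had 4.39, 4.58 and 5.34 against 1.01, 0.94 and 1.07, and KAR4 (1.36) has a promoter that overlaps the left edge of the recombination enhancer region. Of 16 glycolytic genes 4 were higher: PDC1 (1.91), the pyruvate kinase gene CDC19 (1.53), TDH3 (1.47) and PFK2 (1.11). The PFK2 call was lost with promoters of 250 bp and without MOP replicate 2. The ADH1 promoter, which also drives LexA in the construct, measured 2.995 against 2.534 (means) and was not called. Of 138 ribosomal protein genes 8 were higher (5.80%, median 0.08): RPS1B, RPS22A, RPL20B, RPL37B, RPL39, RPS4A, RPL31B and RPL28, from 2.88 down to 1.00. RPL28 was lost with TMM factors, with DESeq2 and without 3 of the 6 libraries in turn, and RPL39 and RPS4A with promoters of 250 bp.

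Windows centred on tRNA genes, snoRNA genes and Orc1 regions, 685 tested in all, gave 60 called higher (8.76%) and 0 lower. At an unadjusted p below 0.05, edgeR had 47 of them lower, and DESeq2 called 1 lower. Orc1, the largest subunit of the origin recognition complex, marks replication origins, and its regions are made of bins higher in G1 Orc1-HA (HOP) than in G1 HOP (3.72% of the bins tested there). Of 337 Orc1 regions 50 were higher (14.8%, median log2 fold change 0.16), the largest being those at FLR1 with HHF1 (3.25), by HOG1 (3.01), at the chromosome XII end by YLL066W-B (2.99) and by SKN1 (2.88). Read the other way, 101 of 561 called bins tested for Orc1 outside chromosome ends and rDNA held Orc1 signal (18.0%), against 3.47% of all such bins. Several called Orc1 regions lay just inside the 5 kb cut, as at XII:5501-6000 (2.99), XIII:6001-6500 (2.55) and XIV:7001-7500 (2.23), and others beside HML and HMR. These shares thus take in DNA near chromosome ends, and origins far from ends were not counted apart.

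The tRNA and snoRNA genes, which attract unspecific ChIP signal in many experiments, were called at shares near the 2.93% of all bins. Of 272 tRNA genes tested 7 were higher (2.57%, median -0.02) and of 76 snoRNA genes 3 (3.95%, median 0.05). The largest was SUF11 at 7.28 against 1.49, a log2 fold change of 2.29, and a Fkh1 summit lay 125 bp from its middle. The SUF11 window, XV:464251-464750, is also the 500 bp promoter of SGO1, so the 2 cannot be told apart. An Orc1 region, XV:464001-464500 (1.55), overlaps it. YNCL0044W (1.99), YNCN0004W (1.65) and YNCK0011C (1.52) kept their calls in every setting tried. YNCL0038W, EMT1, YNCM0029C, SNR53 and SNR69 lost theirs in at least 1 setting, and SNR5 without MOP replicate 2; without that library no snoRNA gene was called.

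At the silent mating-type loci all 4 genes were called higher, but none was called in Fkh1-MYC against the DNA-binding mutant. The HMLALPHA2 promoter measured 1.32, 1.28 and 1.32 in Fkh1-MYC (MOP) and 0.29, 0.50 and 0.70 in MOP, and that of HMRA2 had means of 5.02 and 2.28. The log2 fold changes were 1.37 ± 0.23, 1.25 ± 0.22 for HMLALPHA1, 1.13 ± 0.17 for HMRA2 and 1.02 ± 0.17 for HMRA1, whose call was lost in 6 settings. Against fkh1-dbm-MYC the Fkh1-MYC signal at these 4 promoters was 0.39, 0.41, 0.76 and 0.67 higher on the log2 scale, below the minimum. All 5 called bins at HML and HMR were higher than in the mutant at an adjusted p below 0.05, 4 of 5 were so with FLAG, and 3 of 5 were called in G1. Over all bins, in either direction, 7950 of 24067 passed that adjusted p against the mutant and 4497 of 24067 with FLAG. Bins of a locus are neighbours, so these are not 5 separate observations. Over the HML genes the means were 1.55 in Fkh1-MYC (MOP), 2.23 in Fkh1-MYC, 1.61 in fkh1-dbm-MYC, 0.63 in MOP and 0.69 in untagged cells. Over the HMR genes they were, in the same order, 4.06, 4.37, 2.61, 2.02 and 1.80, so the mutant stood nearer MOP there. HML, HMR and MAT share sequence, so reads of one may be placed at another, and no value is given for MAT. The silencing genes SIR1, SIR2, SIR3 and SIR4 had promoters from -0.10 to 0.51, none called.

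Chromosome ends were another place of called bins. Of 308 bins tested there 55 were called higher, against 2.93% of all bins. A higher region lay in the terminal 5 kb of 29 of 32 chromosome ends, where 1 called bin was enough to count an end. In the 26 end regions with a MOP mean of at least 0.1 the log2 fold change ran from 1.06 to 2.73 with a median of 2.22. The other 4, which also entered the count of 29 ends, lay in stretches with almost no reads in the control. Of 54 called end bins tested against fkh1-dbm-MYC, 27 were called, with a median log2 fold change of 1.02, against 547 of 632 bins elsewhere with a median of 1.50. With FLAG 37 of 53 end bins were called (median 1.42), against 300 of 607 elsewhere (0.99), and in G1 50 of 52 (2.68), against 550 of 632 (1.70). Median normalised counts in the end bins were 3.41 in Fkh1-MYC (MOP), 1.11 in MOP, 4.20 in Fkh1-MYC, 2.18 in fkh1-dbm-MYC and 0.97 in untagged cells. The mutant thus stood between Fkh1 and the controls there, while elsewhere it was at 1.06 beside 1.11 for MOP. Ends hold repeated sequence whose reads may come from several chromosomes.

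The rDNA, the tandem array of ribosomal RNA genes on chromosome XII, held the bins of highest signal in both strains. In the spacer from RDN37-1 to RDN5-1 the normalised counts were 370, 315 and 538 in Fkh1-MYC (MOP) and 107, 87.4 and 91.5 in MOP, a ratio of 2.10 on the log2 scale. Over the 35S coding part they were 110, 89.1 and 159 against 116, 79.0 and 85.3, and overlapped. The spacer measured 541 in Fkh1-MYC and 300 in fkh1-dbm-MYC, while the 35S coding part measured 206 and 242. Of 12 called rDNA bins, 2 were called against fkh1-dbm-MYC, where 6 were higher at an adjusted p below 0.05. Others were below the mutant, with log2 fold changes down to -0.24. In G1 6 were called (median log2 fold change 2.13). In Fkh1-FLAG (FLOP) against FLOP 0 were called, where edgeR had 4 higher at an unadjusted p below 0.05 and DESeq2 was not run. Over all bins, in either direction, 7950 of 24067 passed the adjusted p against the mutant. With FLAG 7418 of 24067 had an unadjusted p below 0.05. The copy number of the array in each strain was not measured.

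The DNA-binding mutant, the FLAG epitope and G1 arrest gave 3 further readouts of the 704 bins. Of 703 tested against fkh1-dbm-MYC, 576 were called higher (81.9%), which is 74.1% of the 777 bins called in that comparison (3.23% of the bins tested). A further 82 of the 85 uncalled bins outside ends, rDNA, HML and HMR were higher at an adjusted p below 0.05. Without the fold minimum and in either direction, 7950 of all 24067 bins tested passed that level in the mutant comparison. With the FLAG epitope 337 of 677 were called (49.8%), 90.8% of the 371 calls among bins tested in both, against 1.6% of bins higher and 0.00416% lower in that comparison. In G1 609 of 701 were called (86.9%), 45.0% of 1354 calls, against 5.63% of bins. Median log2 fold changes in these bins were 1.46, 1.00 and 1.75, and over all bins -0.03, -0.02 and 0.03. All 25 named regions were called against the mutant and in G1, and all 24 with comparable coordinates with FLAG.

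**Figure D4:**
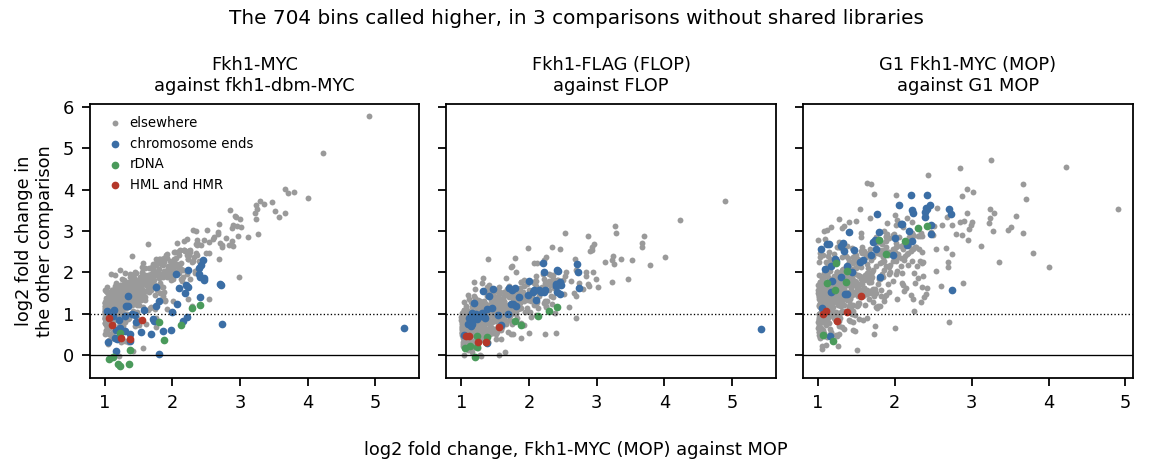
Log2 fold change of the 704 called bins in 3 other comparisons (vertical axes) against that in Fkh1-MYC (MOP) against MOP (horizontal axes); 1 point per bin, coloured by place, with the solid line at 0 and the dotted line at 1. Against fkh1-dbm-MYC, bins at chromosome ends (blue), in rDNA (green) and at HML and HMR (red) have medians of 1.02, 0.25 and 0.74, and bins elsewhere (grey) 1.50.

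At the recombination enhancer the top bin had mean normalised counts of 37.2 in Fkh1-MYC and 0.68 in fkh1-dbm-MYC, a log2 fold change of 5.76, the largest of the 25. At IDI1 and HOS3 they were 20.8 and 0.70 (4.89), and at TEM1 7.51 and 0.89 (3.07). The smallest was at YLL066C, 5.94 against 1.61 (1.88). Signal at the enhancer was thus at background in the mutant as in MOP.

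The promoters of the CLB2 cluster were also read in these comparisons. In the mutant, FLAG and G1 comparisons, 449 of 5989, 201 of 5733 and 587 of 5987 promoters tested were called higher. Of all promoters called against MOP, 324 of 360, 189 of 344 and 328 of 360 were called again. Repeat calls were thus common outside the cluster too. All 15 cluster promoters called against MOP were called higher in Fkh1-MYC than in fkh1-dbm-MYC, together with MMR1 and MOB1 (17 of 28). With FLAG 10 of 27 were called, all among the 15. In α-factor-arrested cells 17 of 28 were called, 14 of them among the 15: ALK1 was not (0.52, against 1.94 in unsynchronized cells), and the 500 bp promoters of CLB2 (1.26), MMR1 (1.68) and MOB1 (1.36) were called in G1 but not in unsynchronized cells. Upstream of CLB2 and MMR1, bins were called in unsynchronized cells too (2.35 and 1.36 at the top). These differences between list members were not tested as such. KAR4 stood at 1.36, 1.34, 0.54 and 0.52 in the 4 comparisons, in the order MOP, mutant, FLAG and G1.

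The change itself was compared between epitopes and between cultures by an interaction term. Against FLAG, the log2 fold change was higher with MYC in 48 bins and lower in 2 (0.209% and 0.00869% of bins), and all 48 were among the 704. In the 678 called bins tested, the median difference was 0.48 on the log2 scale, against 0.03 in all bins. The called bins were chosen for a high change with MYC, which is 1 side of this difference, so a positive median and the overlap follow in part from that choice. The largest difference was 4.95, in the end bin VII:501-1000. The next were on chromosome III, at III:263001-263500 (1.85), III:288001-288500 (1.79) and III:262501-263000 (1.72). DSE1 differed by 1.64, and on chromosome III ERS1 differed by 1.47 and the top bin of the recombination enhancer by 1.18. TEM1 differed by 0.003 (adjusted p = 0.999) and PMA1 by 0.16. Epitope, antibody, strain and depth differ together here (36867406 to 44263661 counts in the Fkh1-FLAG (FLOP) libraries) and cannot be told apart. The 2 lower bins lay by CIP1 (-0.75 with MYC, 0.33 with FLAG) and NCP1 (-0.89 and 0.18). Their number ran from 1 to 12 as libraries were left out, the 12 without MOP replicate 2.

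Against G1, the log2 fold change was higher in unsynchronized cells in 47 bins and lower in 265 (0.195% and 1.1%). Some of the 47 were below the control in G1, as at XV:94501-95000 (-0.59 in unsynchronized cells, -2.04 in G1). Of the 704 bins, 612 were not called different, 13 were among the 47 and 79 among the 265. The enhancer fell from a log2 fold change of 4.90 in unsynchronized cells to 3.53 in G1, a difference of 1.37 (edgeR adjusted p = 0.000746), with mean normalised counts of 14.2 and 1.23 in the 2 G1 groups. DIN7 differed by 1.09 the same way. FLR1 with HHF1, an Orc1 region, went the other way (3.25 against 4.71), as did JJJ3 with YJR098C (2.94 against 4.01). The 47 fell to 30, 28 and 26 without Fkh1-MYC (MOP) replicate 1, 2 or 3 and to 31 without MOP replicate 2.

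The 10 lower bins formed 3 regions, and the largest was the control construct itself. Over the 500 bp of the construct where G1 MOP libraries had their highest signal (XV:566401-566900), the signal was 3.16, 3.59 and 3.53 in Fkh1-MYC (MOP) and 19.5, 14.9 and 32.0 in MOP. All Fkh1-MYC (MOP) libraries were below all MOP libraries, by 2.69 on the log2 scale (exact permutation test, two-sided, p = 0.1, the smallest that 3 against 3 allows). The LexA signal at its operator array was therefore not equal in the 2 strains, although both carry the construct. ADE2 itself, left of the construct, was also lower (1.35 ± 0.08 against 3.51 ± 1.06, SD).

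The other lower regions lay between OLE1, the fatty acid desaturase gene, and ERV14, and in RGA1, a gene for a GTPase-activating protein of Cdc42 near ADE2. OLE1 with ERV14 (VII:400001-401000) gave 0.85, 1.09 and 0.88 against 2.17, 2.02 and 2.95, a log2 fold change of -1.34 ± 0.18 (adjusted p = 9.84e-09). RGA1 (XV:562501-563000) gave 1.00, 0.98 and 1.07 against 2.38, 1.68 and 2.52 (-1.11 ± 0.18), which was -0.998 without MOP replicate 3. At both places MOP stood above the untagged strain (1.26 and 1.31) and Fkh1-MYC (MOP) did not. In G1 MOP they measured 3.69 and 3.81.

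Signal over the tagged gene and over its marker overlapped between the strains. Over the FKH1 coding sequence the normalised counts were 2.53, 2.04 and 2.01 against 1.34, 2.11 and 1.05, higher in 7 of 9 pairs. Over TRP1 they were 2.25 ± 0.19 against 1.92 ± 0.46 (mean ± SD, n = 3 each), higher in 6 of 9 pairs. A single bin at the FKH1 start, IX:102001-102500, was called higher (1.23). The untagged strain had 4.03 over FKH1 and 5.64 over TRP1, above both.

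Most bins with the highest signal in Fkh1-MYC (MOP) were called higher, and most of the others lay in repeated DNA. Of the 241 bins with the highest mean signal in Fkh1-MYC (MOP), 1% of all, 205 were called higher and 36 were not. Among all bins tested 2.93% were called higher. The ranking used the same Fkh1-MYC (MOP) libraries as the call, so the high share follows in part from it and is a description. Of these 36, 35 were also in the top 1% of MOP, with a median MOP signal of 88.3 against 1.23 for the 205. They were 25 bins of the rDNA, 2 of chromosome ends and 9 others, 7 of which lay by the tandem CUP1 array on chromosome VIII, where Fkh1-MYC (MOP) had 4.66 to 6.39 and MOP 6.50 to 8.83. In the other direction, 16 of the top 1% of MOP bins were called higher.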

How the data were processed

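Groups follow the labels (strain, antibody, culture), and members and gene lists were chosen with earlier results of these data known. The authors aligned 150 bp paired-end reads with Bowtie2, removed duplicates with SAMtools and deposited, for each library, raw read counts over 50 bp windows made with bedtools; a read counts in each window it overlaps, so neighbouring windows share reads. The study took its genome sequence from the Saccharomyces Genome Database; a build name is not given in the sources used here.

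From the counts, each library was smoothed by a moving median over 10 windows and scaled by its 20th percentile. Tests used unsmoothed sums over 500 bp, library sizes from that percentile, a minimum of 10 counts in 3 libraries, and edgeR 4.0.16 (glmQLFit, glmQLFTest) in R 4.3.3 with Benjamini-Hochberg adjustment over all features; SEs were derived from its F statistic. A call was a change of 2-fold or more whose adjusted p was below 0.05. The median bin held at least 136 counts in each library. The code was tested on simulated data. Gene positions come from RefSeq R64, with strand from the locus tag. Windows of chromosome XV right of the construct lie 2200 bp beyond the annotation in the 6 libraries, so genes were moved by that amount and FLAG and untagged values were left out there. Positions printed are those of the windows.

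Named were the 25 higher regions with the largest change of their top bin, with 2 or more called bins, 9 of 9 pairs and outside the terminal 5 kb, rDNA and altered loci, up to 5 lower regions, FKH1, TRP1, ADE2, BAR1, called members of the lists (a few are not reported here), the recombination enhancer and the rDNA; other genes were named after their values were seen. Alternatives were TMM factors, DESeq2 1.42.0, the 50th percentile, other filters, bins and widths, a replicate block and leaving out each library. Centromeres, annotated origins, motif searches and peak sequences were not analysed here.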

Additional observations from a re-analysis of the deposited data

Results flagged for a closer look

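Tests of the difference between 2 changes, by an interaction term in edgeR with adjustment over all bins, drew attention to the following results; all differences are on the log2 scale, with 3 libraries in each of 4 groups. Against Fkh1-FLAG (FLOP) and FLOP, the log2 fold change was higher with Fkh1-MYC (MOP) in 48 bins and lower in 2. Among the named regions the change was larger with MYC at DSE1/RSP5 by 1.64, ERS1/EGO2 by 1.47, HOG1/YNCL0007W by 1.37, CHS7/DSE2 by 1.22, the recombination enhancer (KAR4/RDT1) by 1.18, SKN1/SUF4 by 1.16, YLL066W-B/YLL066C by 1.14, FUN12/MTW1 by 1.097, FLR1/HHF1 by 1.05, YPR195C/YPR196W by 1.05, DIN7/AKR1 by 1.04 and DCC1/BUD3 by 1.00.

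Against G1 Fkh1-MYC (MOP) and G1 MOP, the log2 fold change was higher in unsynchronized cells in 47 bins and lower in 265. It was higher by 1.37 at KAR4/RDT1 and by 1.09 at DIN7/AKR1, and differed by -1.45 at FLR1/HHF1 and by -1.08 at JJJ3/YJR098C.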

How the results depend on the processing

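No call changed direction in any setting tried. For the bins called higher, the count ran from 636 (chromosome ends and rDNA left out) and 653 (DESeq2) to 747 (middle window of each bin) under the settings that keep the fold minimum, and from 680 to 736 when 1 library was left out; with the adjusted p alone it was 1953. Of the 653 DESeq2 calls, 651 were among the 704. TMM factors called 660, all among the 704, and turned the median of all bins from 0.01 to -0.02; it was also below 0 with DESeq2, with the 50th percentile and without replicate 3 of either strain. The 10 lower bins became 71 with the middle window, 267 with the adjusted p alone, and 9 to 16 without 1 library. Promoters called higher ran from 310 (TMM factors and DESeq2) to 369 and from 349 to 402 without 1 library. The 1 lower promoter became 5 with TMM factors, 5 with DESeq2 and 14 with promoters of 250 bp, and 2 to 5 without 1 library. Among windows centred on features, TMM factors and DESeq2 each called 1 lower. Without 1 library, the bins that differed from FLAG numbered 35 to 72 (higher) and 1 to 12 (lower), and those that differed from G1 26 to 58 (higher) and 201 to 280 (lower). The bins called against fkh1-dbm-MYC numbered 563 to 580 and the log2 ratio at the lexA array ran from -2.91 to -2.33. Of the 27 named regions, only RGA1 lost its call, and of 62 named genes 18 lost theirs in at least 1 setting, 21 times with 1 library left out and 21 times otherwise.

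Deviations of libraries with the same replicate number were not correlated (r = -0.02, -0.05 and -0.01). No pairing by number was thus seen across bins, but this cannot show whether libraries were handled together. With a replicate block, 701 bins were higher and 10 lower, 694 of the 701 being among the 704, and 369 promoters and 59 centred windows were higher.

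Background levels of 11 to 16.5 counts per window in these 6 libraries limit what small changes can be seen.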
